A study of Mus musculus with 12 samples.

Results

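Kainate receptors are one of the classes of glutamate-gated ion channel, and 7 genes encode their pore-forming subunits (Grik1 to Grik5) and their auxiliary subunits (Neto1 and Neto2). These 7 genes were followed here across 4 laser-captured pieces of the mouse hippocampus. They were chosen by symbol: each had exactly 1 feature with a single gene symbol in the platform annotation, so no choice between features was needed, and they are 7 of 30142 genes measured. The 4 groups were the CA2 dendritic layer, the CA2 cell body layer, the CA1 dendritic layer and the CA1 cell body layer, with 3 Affymetrix whole-transcriptome arrays each. These fields of pyramidal neurons adjoin each other. The cell body layer is the stratum pyramidale, and the dendritic layer is the stratum radiatum, which also holds axons, interneurons, glia and vessels. All tissue came from 3 male mice from separate litters, 6 to 8 weeks old, that carry the Amigo2-EGFP reporter on a C57BL/6J background. No group lacked the reporter, and whether its fluorescence guided the capture is not given in the labels. Each piece was pooled from about 20 capture caps of 5 sections, and the p-values measure the spread between arrays from these mice.

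GluK1, GluK2 and GluK3, the products of Grik1, Grik2 and Grik3, can form channels on their own. GluK4 and GluK5, the products of Grik4 and Grik5, bind kainate with high affinity and form channels only together with one of the others. Neto1 and Neto2 are single-pass membrane proteins that slow the gating of the channel and raise its affinity for agonist. In the hippocampus kainate receptors are best known from the mossy fibre synapses onto CA3 pyramidal neurons, which border CA2, and Grik1 is known from GABAergic interneurons.

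Levels are the authors' normalized log2 values, so a difference of 1 is a 2-fold difference, and group values are means ± SD of 3 arrays. The median of all genes lay between 6.42 and 6.61 on the 12 arrays. The median difference of all genes was 0.12 between the CA1 layers and -0.11 between the dendritic layers of CA2 and CA1. The shares of calls above 0 were 60.5% and 38.3% in these comparisons, and 35.2% and 56.4% after each array was centred on its median. Pyramidal neuron markers averaged 8.23 to 8.45 on the CA2 dendritic arrays and 10.17 to 10.28 on the CA2 cell body arrays, with 8.92 to 9.07 on the CA1 dendritic and 10.08 to 10.26 on the CA1 cell body arrays. The 7 CA2 neuron markers averaged 9.88 to 10.06 on the CA2 and 7.14 to 7.23 on the CA1 cell body arrays. All 6 CA2 arrays carried one run number and all 6 CA1 arrays another, so CA2 against CA1 is also run against run, and the 2 cannot be told apart. Transcripts of oocytes were high on 3 CA2 arrays, dendritic arrays 2 and 3 and cell body array 1, where 11 oocyte markers averaged 7.41 to 7.60 against 5.41 to 5.85 on the other 9. For the 7 genes and the receptor lists below, fits without these 3 arrays are given where they end a call or turn a direction. Those fits keep CA2 dendritic array 1 and CA2 cell body arrays 2 and 3, which share no replicate number. Their CA2 layer differences therefore include replicate offsets estimated from the CA1 arrays.

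The members did not share a pattern. Grik4 and Neto1 had their highest values in the CA2 cell body layer and their lowest in the CA1 cell body layer, Grik1 was highest in the CA2 dendritic layer, and Grik5 and Grik3 were highest in the CA1 dendritic layer. Grik2 and Neto2 were lowest in the CA1 dendritic layer. Between the CA1 layers all 7 members passed the test (adjusted p under 0.05), where 46.9% of all genes did, and in all 7 the groups did not overlap, as in 55.1% of genes. Between the CA2 layers 2 of 7 passed, against 34% of genes, and 5 of 7 did not overlap, against 47.3%. The layer difference itself differed between CA2 and CA1 for 5 of 7, where 11.6% of genes passed. It was more positive in CA2 for 2 of these, against 4.81% of genes, and more negative for 3, against 6.81%. CA2 differed from CA1 in 6 of 7 in the dendritic layer, against 30.2% of genes, and in 3 of 7 in the cell body layer, against 21.1%. The dendritic calls of Grik2, Grik3, Neto1 and Neto2 were lost in a fit of the 2 dendritic groups alone. The groups did not overlap in 7 of 7 in the dendritic layer, against 41% of genes, and in 6 of 7 in the cell body layer, against 43.7%.

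**Figure D1:**
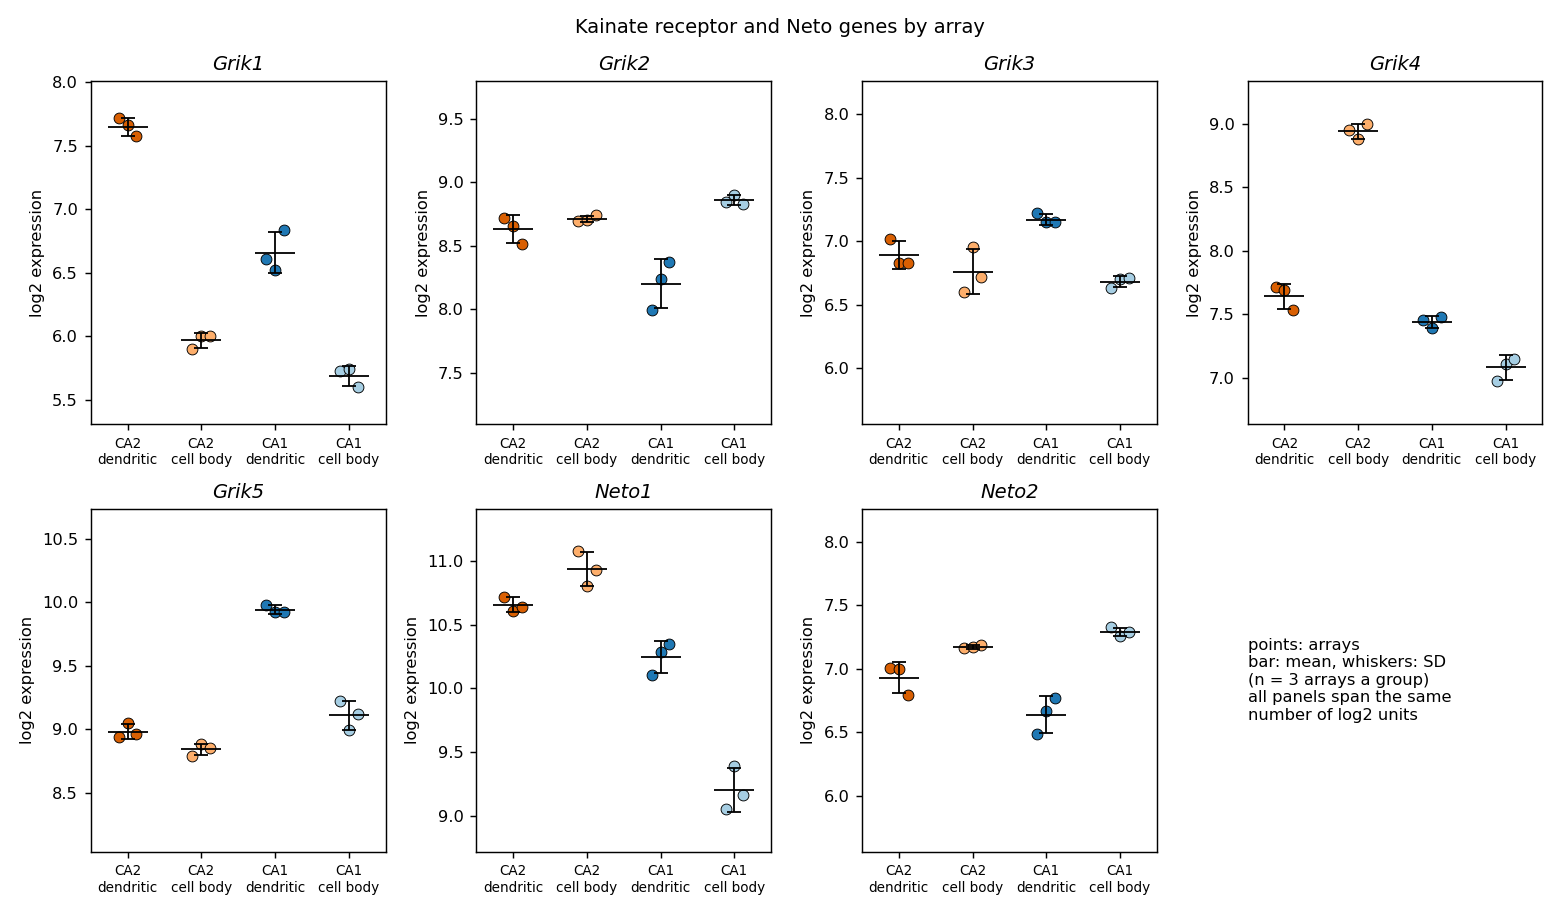
Log2 expression (y axis) of the 7 genes in the 4 groups (x axis), with a point for each array, a bar at the mean and whiskers of 1 SD (n = 3). Grik4 and Neto1 peak in the CA2 cell body layer at 8.94 and 10.94, and Grik1 in the CA2 dendritic layer at 7.65.

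Grik1, which encodes GluK1, was the member with the largest rise in the dendritic layer of CA2. It read 7.72, 7.66 and 7.58 on the CA2 dendritic arrays and 5.90, 6.00 and 6.00 on the CA2 cell body arrays. It read 6.61, 6.52 and 6.84 on the CA1 dendritic arrays and 5.73, 5.74 and 5.60 on the CA1 cell body arrays. Every dendritic array lay above every cell body array, no 2 groups overlapped, and both cell body groups lay below the median gene. The table holds no detection calls, and the cell body levels, 5.60 to 6.00, are near the 5.41 to 5.85 of oocyte markers on the unaffected arrays, so they were not shown to be above background. Its layer rise was 1.69 in CA2 (SE 0.09, adjusted p = 3.16e-07) and 0.97 in CA1 (SE 0.09, adjusted p = 1.5e-05), and each is a lower bound if the cell body layer is at background. The rises as measured differed by 0.72, CA2 minus CA1 (SE 0.13, adjusted p = 0.00748). If the cell body layers are at background, this value is no bound and may be too high or too low. That last call was lost without replicate 1 of all groups (0.61, adjusted p = 0.114), without replicate 2 (0.64, adjusted p = 0.106) or when the 3 oocyte-marked arrays were left out (0.76, adjusted p = 0.11). In the dendritic layer CA2 was 0.997 above CA1 (SE 0.09, adjusted p = 1.23e-04). In the cell body layer the difference was 0.28 (95% interval 0.07 to 0.48, adjusted p = 0.0585), which passed without the replicate block (adjusted p = 0.0319) and without CA1 dendritic array 2 (0.28, adjusted p = 0.0398) or 3 (0.28, adjusted p = 0.0188).

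Interneuron markers moved with Grik1. The 15 markers averaged 8.95 to 9.08 on the CA2 dendritic arrays and 7.58 to 7.70 on the CA2 cell body arrays, with 8.56 to 8.93 on the CA1 dendritic and 7.53 to 7.61 on the CA1 cell body arrays. Of the 15, 12 rose and 0 fell in the CA2 dendritic layer, and 13 rose and 1 fell in the CA1 dendritic layer. Over all genes 16.2% rose and 17.8% fell between the CA2 layers, and 28.3% rose and 18.5% fell between the CA1 layers. Between regions, 6 markers were higher and 2 lower in the CA2 dendritic layer, where 11.6% of all genes were higher and 18.6% lower. Astrocyte, microglia, endothelial, mural and oligodendrocyte markers, all of them called, were also higher in both dendritic layers. Between regions in the dendritic layer, 7 of 9 endothelial and 4 of 7 oligodendrocyte markers were higher in CA2, and 0 were lower in either list. Of 6 mural markers 1 was higher and 0 lower, and of 9 astrocyte markers 1 was higher and 1 lower. Of 9 microglia markers 0 were higher and 7 lower. The 9 astrocyte markers averaged 9.44 to 9.57 in the CA2 dendritic and 7.63 to 7.67 in the CA2 cell body layer. The part of these cells in the Grik1 result was not tested, and in pieces of tissue fewer cells of a type and less RNA per cell cannot be told apart.

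Grik2, the gene of GluK2, was lower in the CA1 dendritic layer than elsewhere. It read 8.72, 8.65 and 8.51 on the CA2 dendritic and 8.69, 8.70 and 8.74 on the CA2 cell body arrays. It read 7.99, 8.24 and 8.37 on the CA1 dendritic and 8.84, 8.90 and 8.83 on the CA1 cell body arrays. The CA1 dendritic arrays lay below all others, and the CA2 layers overlapped. Grik2 fell by 0.66 in the dendritic layer of CA1 (SE 0.10, adjusted p = 2.82e-04), while the CA2 difference was -0.08 (95% interval -0.30 to 0.13, adjusted p = 0.584). The CA2 value was 0.03 after quantile normalization (limma, adjusted p = 0.871). When the 3 oocyte-marked arrays were left out the block-adjusted CA2 value was 0.17. The CA2 arrays then left read 8.72 (dendritic) and 8.70 and 8.74 (cell body). The layer differences differed by 0.57 (SE 0.14, adjusted p = 0.0247). This call was lost without replicate 1 or 2 of all groups, CA1 cell body array 1 or 2, any single CA2 cell body array, or CA2 dendritic array 1 or 2 (0.42 to 0.59, adjusted p = 0.0506 to 0.203). It was also lost when the 3 oocyte-marked arrays were left out (0.83, adjusted p = 0.0705). In the dendritic layer CA2 was 0.43 above CA1 (SE 0.10, adjusted p = 0.00944), a call lost without replicate 1 (0.28, adjusted p = 0.0958), without replicate 2 (0.44, adjusted p = 0.0881), and in a fit of the 2 dendritic groups alone (adjusted p = 0.0821). The cell body layers differed by -0.15 (95% interval -0.36 to 0.07, adjusted p = 0.345).

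Grik3, the gene of GluK3, varied least between groups. It read 7.02, 6.83 and 6.83 on the CA2 dendritic and 6.60, 6.95 and 6.72 on the CA2 cell body arrays, which overlapped. It read 7.22, 7.15 and 7.15 on the CA1 dendritic and 6.63, 6.70 and 6.71 on the CA1 cell body arrays. The CA1 dendritic arrays were the highest. The oocyte marker Zar1 read 6.78 to 6.95 on the CA1 dendritic and 6.34 to 6.60 on the CA1 cell body arrays. The Grik3 levels, close to these, were not shown to be above background. Grik3 rose by 0.49 in the dendritic layer of CA1 (SE 0.09, adjusted p = 0.00168), against a CA2 difference of 0.14 (95% interval -0.07 to 0.35, adjusted p = 0.329), and the difference between the regions was -0.36 (95% interval -0.65 to -0.06, adjusted p = 0.103). In the dendritic layer CA2 was lower than CA1 (-0.28, SE 0.09, adjusted p = 0.0473). This call was kept without CA2 cell body array 1 or 2 or CA2 dendritic array 1, and lost in the other 12 of 15 fits that left out an array or a replicate number (-0.32 to -0.22, adjusted p = 0.0620 to 0.187). It was also lost after median centring (-0.22, adjusted p = 0.112) and when the 3 oocyte-marked arrays were left out (-0.15, adjusted p = 0.48). The cell body layers differed by 0.08 (95% interval -0.13 to 0.29, adjusted p = 0.647).

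Grik4, the gene of the high-affinity subunit GluK4, was raised in CA2 cell bodies. It read 8.95, 8.88 and 9.0 on the CA2 cell body arrays and 6.97, 7.11 and 7.15 on the CA1 cell body arrays. On the dendritic arrays it read 7.71, 7.69 and 7.53 in CA2 and 7.45, 7.39 and 7.48 in CA1. No 2 of the 4 groups overlapped, and the CA2 cell body arrays lay more than 1 unit above the next group. CA2 exceeded CA1 by 1.87 in the cell body layer (SE 0.08, adjusted p = 2.65e-07), a 3.65-fold difference, and 0.42% of all genes differed by as much in either direction. The CA1 cell body levels lie within the range of the Grik3 arrays (6.60 to 7.22) and, like those, were not shown to be above background. If they are at background, the difference of 1.87 is a lower bound. In the dendritic layer the region difference was 0.20 (95% interval 0.03 to 0.38, adjusted p = 0.0731). It passed without the replicate block (adjusted p = 0.0457) and without CA2 dendritic array 3 (0.29, adjusted p = 0.0283).

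The layers of the 2 regions differed in opposite directions in Grik4. In CA2 it fell by 1.30 in the dendritic layer (SE 0.08, adjusted p = 6.41e-07). In CA1 it rose by 0.36 (SE 0.08, adjusted p = 0.00361), a rise that was 0.21 after median centring (adjusted p = 0.0723) and 0.31 without replicate 1 (adjusted p = 0.0505). The oocyte marker Nlrp5 also read higher on the CA1 dendritic (7.07 to 7.24) than on the CA1 cell body arrays (6.11 to 6.29). The layer differences of Grik4 differed by -1.66 (SE 0.11, adjusted p = 2.8e-05), and 0.35% of all genes had a difference of this size. With the 3 oocyte-marked arrays left out the value was -1.52 (adjusted p = 0.00981). Markers of CA2 neurons moved with Grik4 in 2 comparisons: all 7 were higher in CA2 than in CA1 cell bodies (median 3.03) and all 7 lower in the CA2 dendritic than in the CA2 cell body layer (median -2.39), where 10.6% of all genes were higher and 17.8% lower in these comparisons. Between the CA1 layers they were mixed, with 3 higher, 1 lower and 3 not called in the dendritic layer. The 7 CA3 markers were also all higher in the CA2 than in the CA1 cell body layer (median 0.67), from 0.26 for Cdh24 to 5.01 for Cpne4. The CA3 list averaged 8.25 to 8.33 on the CA2 and 6.80 to 6.90 on the CA1 cell body arrays, and its part in the Grik4 result was not tested.

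Grik5, the gene of the other high-affinity subunit, GluK5, was raised in the CA1 dendritic layer. It read 8.94, 9.05 and 8.96 on the CA2 dendritic and 8.79, 8.88 and 8.85 on the CA2 cell body arrays. It read 9.98, 9.92 and 9.92 on the CA1 dendritic and 9.22, 8.99 and 9.12 on the CA1 cell body arrays. The CA1 dendritic arrays lay well above the rest, and the other 3 groups lay within about 0.4 of each other. Grik5 rose by 0.83 in the dendritic layer of CA1 (SE 0.08, adjusted p = 1.05e-05), while the CA2 difference was 0.14 (95% interval -0.02 to 0.31, adjusted p = 0.186). The CA2 difference passed after quantile normalization (0.25, adjusted p = 0.0224). When the 3 oocyte-marked arrays were left out its block-adjusted value was -0.04. The CA2 dendritic array then left (8.94) still lay above both CA2 cell body arrays (8.88 and 8.85). The layer differences differed by -0.69 (SE 0.11, adjusted p = 0.00351), a call lost without replicate 3 of all groups (-0.69, adjusted p = 0.0555). In the dendritic layer CA2 was below CA1 (-0.96, SE 0.08, adjusted p = 5.73e-05), a 1.94-fold difference. In the cell body layer it was also lower (-0.27, SE 0.08, adjusted p = 0.0273), but this call was lost without replicate 1 or 3 of all groups, CA1 cell body array 1 or 3, or any single CA2 cell body array (-0.30 to -0.19, adjusted p = 0.0541 to 0.241), and when the 3 oocyte-marked arrays were left out (-0.21, adjusted p = 0.162). The genes of the 2 high-affinity subunits, which both need a GluK1 to GluK3 partner, differed between regions in opposite directions in the cell body layer.

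Neto1, an auxiliary subunit gene, was higher in CA2 than in CA1 in both layers. It read 10.72, 10.61 and 10.64 on the CA2 dendritic arrays and 10.11, 10.29 and 10.35 on the CA1 dendritic arrays. On the cell body arrays it read 11.08, 10.81 and 10.93 in CA2 and 9.05, 9.39 and 9.16 in CA1. No 2 groups overlapped, and the CA1 cell body arrays were the lowest by over 0.7. The region difference was 1.74 in the cell body layer (SE 0.11, adjusted p = 2.79e-06), which is 3.34-fold, and 0.41 in the dendritic layer (SE 0.11, adjusted p = 0.0201). The dendritic call was lost without replicate 1 or 3 of all groups or without CA1 or CA2 dendritic array 1 (0.31 to 0.47, adjusted p = 0.0703 to 0.0949), and after quantile normalization (0.29, adjusted p = 0.0844). Between layers, Neto1 rose by 1.05 in the dendritic layer of CA1 (SE 0.11, adjusted p = 2.67e-05). In CA2 the difference was -0.28 (95% interval -0.53 to -0.04, adjusted p = 0.0706). It passed without the replicate block (adjusted p = 0.0425), without CA1 cell body array 2 (-0.28, adjusted p = 0.0435) and without CA2 cell body array 2 (-0.38, adjusted p = 0.0371). With the 3 oocyte-marked arrays left out, the remaining CA2 dendritic array (10.72) still lay below both remaining CA2 cell body arrays (10.81 and 10.93). The block-adjusted CA2 difference without those 3 arrays was 0.07. The layer differences differed by -1.33 (SE 0.15, adjusted p = 6.72e-04), and by -0.98 without those arrays (adjusted p = 0.045).

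Neto2, the other auxiliary subunit gene, had a pattern near that of Grik2. It read 7.01, 7.00 and 6.79 on the CA2 dendritic and 7.16, 7.17 and 7.19 on the CA2 cell body arrays. It read 6.49, 6.67 and 6.77 on the CA1 dendritic and 7.33, 7.26 and 7.29 on the CA1 cell body arrays. Dendritic arrays lay below cell body arrays in both regions, with the CA1 dendritic arrays lowest. These levels, like those of Grik3, were not shown to be above background. Neto2 fell by 0.65 in the dendritic layer of CA1 (SE 0.09, adjusted p = 1.77e-04). In CA2 the difference was -0.24 (95% interval -0.44 to -0.04, adjusted p = 0.0614), and without the replicate block it passed (adjusted p = 0.0349). It also passed without CA1 dendritic array 1 or 3 or CA2 dendritic array 1 (-0.30 to -0.24, adjusted p = 0.0311 to 0.0491). The difference between the layer differences was 0.41 (95% interval 0.13 to 0.69, adjusted p = 0.061), passing without the block (adjusted p = 0.0335), without CA1 dendritic array 3 (0.50, adjusted p = 0.0262) and without CA2 dendritic array 3 (0.51, adjusted p = 0.0293). In the dendritic layer CA2 was 0.29 above CA1 (SE 0.09, adjusted p = 0.0338), a call lost without replicate 1 or 2 of all groups, or without dendritic array 1 or 2 of either region (0.18 to 0.30, adjusted p = 0.0728 to 0.251), and when the 3 oocyte-marked arrays were left out (0.43, adjusted p = 0.102). The cell body layers differed by -0.12 (95% interval -0.32 to 0.08, adjusted p = 0.41).

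**Figure D2:**
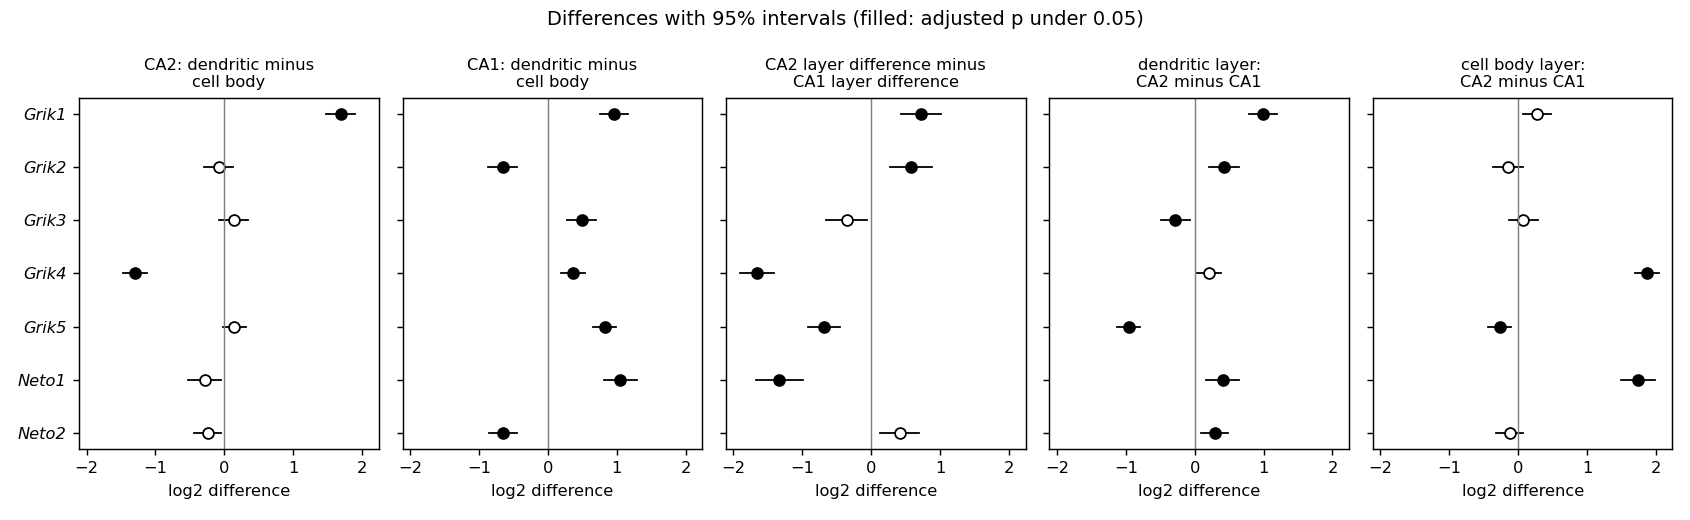
Log2 differences (x axis) of the 7 genes (y axis) in the 5 comparisons, with 95% intervals from limma, and filled points where the adjusted p is under 0.05. The intervals of Grik4 and Neto1 lie far above 0 between the cell body layers (1.87 and 1.74), and that of Grik5 far below 0 between the dendritic layers (-0.96).

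Across the 12 arrays, the patterns of Grik2 and Neto2 were the most alike among the members (Pearson r = 0.961), and Grik4 and Neto1 followed (r = 0.792). Grik2 ran opposite to Grik3 (r = -0.832) and Grik5 (r = -0.823). These coefficients describe arrays that share groups and runs. Among genes above the median level, Grik1 was most like Elf1, an Ets-family transcription factor (r = 0.996), Reln, the matrix protein made by interneurons of the dendritic layers (r = 0.995), and Efcab14 (r = 0.991). Reln read 9.21, 8.87 and 9.08 on the CA2 dendritic and 6.30, 6.37 and 6.51 on the CA2 cell body arrays. It read 7.61, 7.40 and 7.97 on the CA1 dendritic and 6.07, 5.92 and 5.86 on the CA1 cell body arrays. It has the group order of Grik1 because it was picked by correlation. Reln is 1 of the 15 interneuron markers, of which 6 were higher and 2 lower in the CA2 than in the CA1 dendritic layer. Sst (means 9.58 and 10.78) and Vip (7.26 and 8.01) averaged lower in the CA2 dendritic layer. Grik4 was most like Srgap2, a regulator of dendritic spines (r = 0.988), and Stard5, a lipid-transfer protein (0.987). Neto1 was most like Fstl5 (0.994), Sh3kbp1, an endocytic adaptor (0.987), and Layn, a hyaluronan receptor (0.987). For Grik5 the nearest were Hectd4 (0.994), Ppp1r37 (0.992) and Ago2, the small-RNA effector (0.99). For Grik2 they were Ndufv2, a subunit of respiratory complex I (0.971), Pdcd4, an inhibitor of translation initiation (0.971), and Sco1, a copper chaperone of cytochrome oxidase (0.965). Neto2 was nearest to Thoc7 (0.982), Krit1 (0.975) and Ebag9 (0.972), and Grik3 to Col1a1 (0.943), Il17rc (0.938) and Dipk1c (0.937).

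**Figure D3:**
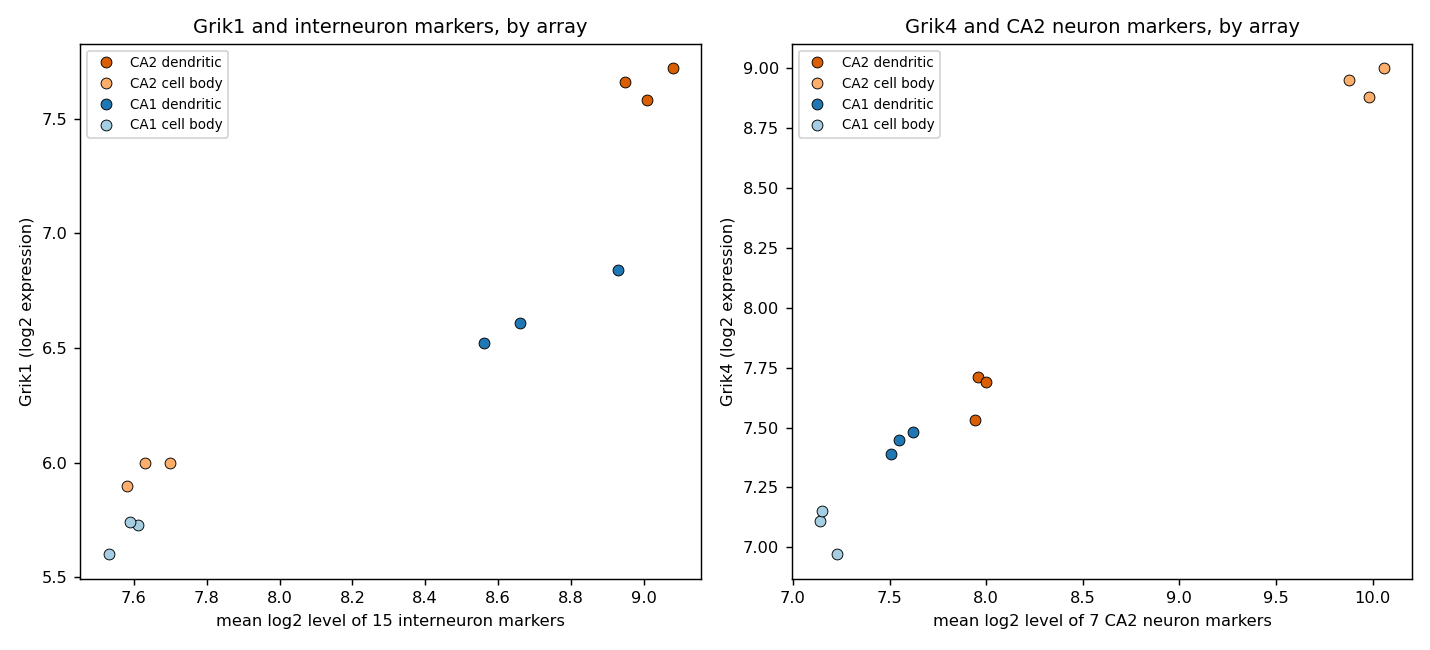
Left, Grik1 (y axis, log2) against the mean log2 level of 15 interneuron markers (x axis); right, Grik4 against that of 7 CA2 neuron markers; each point is 1 of 12 arrays, coloured by group. The CA2 dendritic arrays are highest in the left panel (Grik1 at 7.58 to 7.72) and the CA2 cell body arrays in the right panel (Grik4 at 8.88 to 9.0).

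The reference promoters of Grik4 and Grik5 are shown because these members had the largest region differences in each direction, though in different layers. Grik4 was higher in CA2 between the cell body layers (1.87) and Grik5 lower between the dendritic layers (-0.96). The promoters of Grik2 and Neto2 are shown because these genes moved together. Each is the 300 bases from 250 before to 50 after the annotated start, from RefSeq on GRCm38.p6, 5′ to 3′ along the gene's strand. Of the 7 members, 5 had a promoter entry among those used. Entries on 1 chromosome were left out beforehand, so the count does not show that the other members lack an entry. Neto2 had 2 entries, of which the more upstream start is shown. Capitals mark the GC box, GGGCGG or its complement CCGCCC, a motif bound by Sp1-family factors.
Grik4 (chr9:42944322-42944621, minus strand): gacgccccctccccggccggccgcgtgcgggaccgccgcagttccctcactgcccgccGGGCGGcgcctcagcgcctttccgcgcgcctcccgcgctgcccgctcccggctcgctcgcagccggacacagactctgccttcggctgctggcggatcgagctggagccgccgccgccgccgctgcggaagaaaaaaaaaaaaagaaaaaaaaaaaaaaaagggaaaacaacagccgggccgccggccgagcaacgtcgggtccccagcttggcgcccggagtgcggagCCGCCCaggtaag
Grik5 (chr7:25072320-25072619, minus strand): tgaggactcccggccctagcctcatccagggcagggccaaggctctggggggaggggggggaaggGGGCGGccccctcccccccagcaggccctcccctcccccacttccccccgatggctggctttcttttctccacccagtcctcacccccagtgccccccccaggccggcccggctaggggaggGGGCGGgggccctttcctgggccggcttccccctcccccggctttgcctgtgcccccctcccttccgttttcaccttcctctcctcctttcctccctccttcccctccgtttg
Grik2 (chr10:49788705-49789004, minus strand): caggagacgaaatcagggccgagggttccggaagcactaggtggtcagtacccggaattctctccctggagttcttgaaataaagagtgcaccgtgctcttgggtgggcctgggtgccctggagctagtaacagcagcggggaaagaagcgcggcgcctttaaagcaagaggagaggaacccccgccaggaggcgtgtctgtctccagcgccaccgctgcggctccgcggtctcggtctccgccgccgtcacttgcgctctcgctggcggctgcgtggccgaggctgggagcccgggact
Neto2 (chr8:85700875-85701174, minus strand): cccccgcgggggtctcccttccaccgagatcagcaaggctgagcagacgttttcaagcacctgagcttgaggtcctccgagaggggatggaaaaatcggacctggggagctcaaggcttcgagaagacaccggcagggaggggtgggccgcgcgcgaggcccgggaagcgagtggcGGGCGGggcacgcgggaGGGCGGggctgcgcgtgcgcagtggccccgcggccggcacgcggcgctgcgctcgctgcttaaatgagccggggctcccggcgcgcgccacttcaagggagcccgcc
The GC box occurred 2 times each in the promoters of Grik4, Grik5 and Neto2 and 0 times in that of Grik2, while 35.7% of 32851 promoters of this length held at least 1. The E-box CANNTG, bound by basic helix-loop-helix factors such as NeuroD proteins and read the same on both strands, occurred 1 time each in Grik2 and Neto2 and 0 times in Grik4 and Grik5, and 72.3% of promoters held it. These 4 promoters were 64.7% to 72.0% G or C, where the median promoter was 52.7%. The Neto2 entry that is not shown differed: it held the GC box 0 times and the E-box 6 times and was 42.7% G or C. A match describes the letters and does not show that a factor binds there.

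Partners of kainate receptors were taken from a list of 24 genes, of which 18 had a feature with a single symbol. In the CA2 dendritic layer 4 of the 18 rose and 8 fell (median -0.16, all genes -0.03), and in the CA1 dendritic layer 3 rose and 9 fell (median -0.13, all genes 0.12). Over all genes 16.2% rose and 17.8% fell between the CA2 layers, and 28.3% rose and 18.5% fell between the CA1 layers. With the 3 oocyte-marked arrays left out, 5 partners rather than 12 were called between the CA2 layers. Dlg4, the PSD-95 scaffold to which GluK2 binds, rose by 0.46 in CA2 (adjusted p = 1.73e-04, and 0.0852 without those arrays) and by 0.92 in CA1 (adjusted p = 1.43e-06), and Dlg1, a related scaffold, rose by 0.65 (adjusted p = 6.75e-05) and 0.59 (adjusted p = 1.17e-04). Slc12a5, the potassium-chloride cotransporter KCC2 that binds Neto2 and GluK2, fell by 0.98 in CA2 (adjusted p = 1.26e-05) and by 0.65 in CA1 (adjusted p = 2.13e-04). Nrxn3 (neurexin-3) and Snap25, a presynaptic fusion protein, were among the largest falls in CA2 (-0.72 and -0.58), and Copb1, a coat protein of vesicles, in CA1 (-0.70).

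C1ql3, a secreted C1q-like protein that clusters kainate receptors at mossy fibre synapses, varied most. It read 7.65, 8.36 and 8.18 on the CA2 dendritic and 6.40, 8.01 and 7.13 on the CA2 cell body arrays, and 8.40, 8.67 and 9.0 on the CA1 dendritic and 10.17, 10.53 and 10.48 on the CA1 cell body arrays. The CA2 layers overlapped, and the CA1 cell body arrays stood highest. Between the CA2 layers the difference was 0.88 (SE 0.22, adjusted p = 0.00864). It was lost without replicate 1 (0.70, adjusted p = 0.0766) or 3 (0.80, adjusted p = 0.0991), without the replicate block (adjusted p = 0.0514), and when the 3 oocyte-marked arrays, CA2 cell body array 1 among them, were left out (0.47, adjusted p = 0.478). C1ql3 fell by 1.70 in the CA1 dendritic layer (SE 0.22, adjusted p = 1.09e-04). The layer differences differed by 2.59 (SE 0.31, adjusted p = 8.05e-04), and by 2.17 without the oocyte-marked arrays (adjusted p = 0.0502). In the cell body layer CA2 was below CA1 (-3.21, SE 0.22, adjusted p = 5.09e-06), the opposite direction to Grik4 and Neto1. Adarb1, the deaminase that edits the RNA of Grik1 and Grik2, was higher in CA2 by 0.63 in the dendritic layer (adjusted p = 4.39e-04) and by 0.93 in the cell body layer (adjusted p = 2.23e-05). Klhl24, which binds GluK2, was higher by 0.56 and 0.54, and Cul3, a ubiquitin ligase scaffold, by 0.59 and 0.45 in the same layers. Of the 18 partners, 6 were higher and 2 lower in the CA2 than in the CA1 dendritic layer, and 8 were higher and 2 lower in the cell body layer. Over all genes 11.6% rose and 18.6% fell in CA2 between the dendritic layers, with 10.6% and 10.5% between the cell body layers. Without the oocyte-marked arrays, 5 rather than 8 were called in the dendritic layer. In the cell body layer the count was 5 or 6 without replicate 1, 2 or 3, CA1 cell body array 3 or CA2 cell body array 1 or 2, against 10. The layer differences differed between regions in 5 of 18, where 11.6% of all genes passed. The count was 0 without the oocyte-marked arrays by limma's adjusted p (7 at an unadjusted p under 0.05), 1 without replicate 1, 2 or 3 of all groups, and 3 without any single cell body array, so apart from C1ql3 these calls are not described further.

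Of the 13 AMPA, NMDA and delta receptor genes of the same superfamily, 11 were measured. In the CA2 dendritic layer 2 rose and 6 fell (median -0.72), where 16.2% of all genes rose and 17.8% fell. In the CA1 dendritic layer 3 rose and 6 fell (median -0.26), where 28.3% rose and 18.5% fell. Grin2a and Grin2b, NMDA receptor subunits, fell in both regions (-2.09 and -1.96 in CA2, -1.91 and -1.85 in CA1), further than any kainate receptor or Neto gene. Grin3a, a modulatory NMDA receptor subunit, rose by 1.22 in CA2 (adjusted p = 8.21e-07). The CA1 difference was 0.21 (adjusted p = 0.0451), and 0.06 after median centring (adjusted p = 0.651). It was also lost after quantile normalization (0.137, adjusted p = 0.179), with array weights (adjusted p = 0.0569) and without replicate 1 (0.165, adjusted p = 0.259) or 3 (0.155, adjusted p = 0.255). Most fits without a single array also lost the CA1 call of Grin3a. Between the regions its layer differences differed by 1.01 (adjusted p = 4.46e-04), and by 0.92 without the oocyte-marked arrays (adjusted p = 0.0531). The layer differences of 4 of these 11 genes differed between regions, where 11.6% of all genes passed. The count was 0 without the oocyte-marked arrays by limma's adjusted p (5 at an unadjusted p under 0.05), and 1 without replicate 1, 2 or 3 of all groups, CA1 cell body array 1 or 2, CA2 cell body array 2 or 3, or CA2 dendritic array 2. It was 2 without CA1 dendritic array 1, CA1 cell body array 3 or CA2 dendritic array 1. Between regions, 2 were higher and 6 lower in the CA2 than in the CA1 dendritic layer, and 1 was higher and 4 lower in the cell body layer. The 8 dendritic calls were 2 without the oocyte-marked arrays, 3 without replicate 1 or 2 of all groups, and 4 without CA2 dendritic array 2. Gria4, an AMPA receptor subunit of interneurons and glia, was higher in CA2 by 0.87 and 0.64 in these layers (adjusted p = 0.051 in the dendritic layer without the oocyte-marked arrays), and Grin2a was lower (-0.99 and -0.82).

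**Figure D4:**
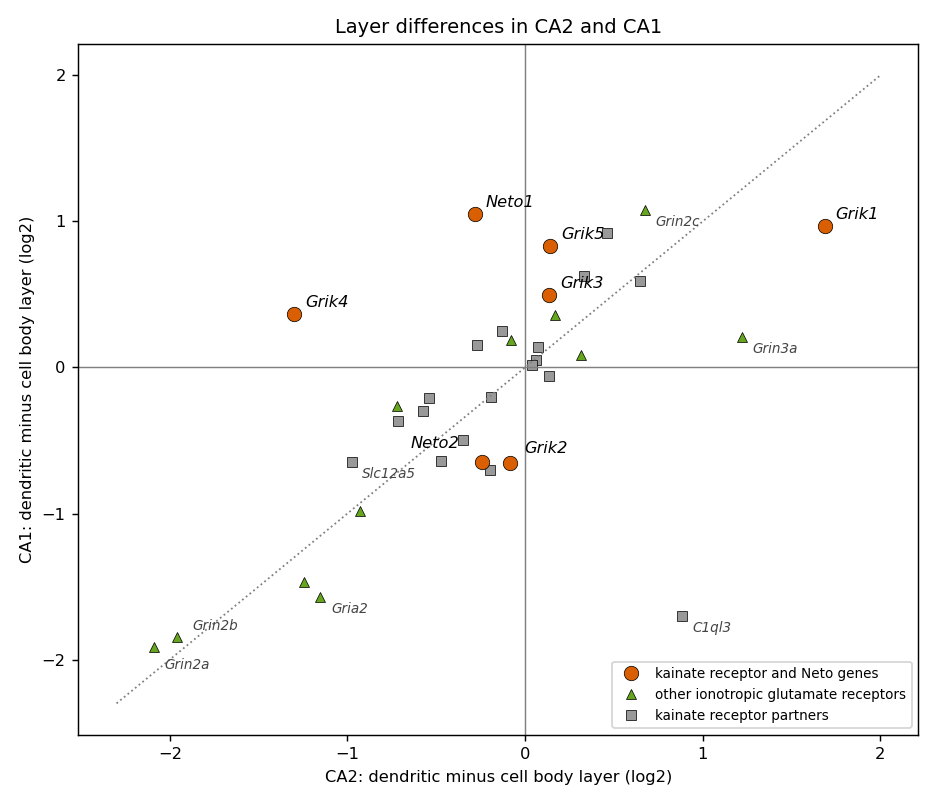
Dendritic minus cell body difference (log2) in CA2 (x axis) and CA1 (y axis) for the 7 kainate receptor and Neto genes, 18 partners and 11 other ionotropic receptor genes, with equal differences on the dotted line. Grik4 (-1.30 and 0.36) and Neto1 (-0.28 and 1.05) lie above the line, and Grik1 (1.69 and 0.97) below it.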

How the data were processed

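The authors deposited log2 expression values made with RMA (robust multi-array average), per the submitters' processing notes; the sources used here do not give its version or whether both runs were normalized together. Of 72688 features, 30604 had 1 gene symbol, and the feature with the highest mean was kept for each of 30142 genes. Symbols were updated through 22818 Entrez matches to a RefSeq gene table. No filter on low values was applied and the table holds no detection calls, so all 7 members were tested. limma 3.58.1 in R 4.3.3 (lmFit, eBayes) was fitted to all 12 arrays with a mean per group (4) and a fixed block for replicate number, two-sided, with Benjamini-Hochberg adjustment over the 30142 genes and a threshold of 0.05. On simulated data for the CA1 layer comparison (30142 genes), 54 of 100 genes changed by 0.5 and 96 of 100 changed by 1 were recovered, with 12 false calls. Only these genes were changed and the noise had no replicate or run structure, whereas 46.9% of genes were called in the data. The recovery and false calls therefore do not carry over to the data.

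The protocols tie 4 pieces to each of 3 mice, which is why the number was used as a block, but no label says that it stands for the mouse. Deviations from group means correlated at -0.346 to 0.132 over 18 same-numbered pairs of arrays, with 1 pair over 0.1, and at up to 0.251 in pairs of unlike number. Members and lists were chosen with earlier results of these data known. The named-gene rule took all members, from the 2 receptor lists the 3 largest called rises and falls of each comparison, and for each member the 3 genes above the median level with the highest Pearson correlation over 12 arrays. Of these, the text gives a part for the lists and all for the members, except 1 gene that is not reported here. Arrays give no read depth, and their number limits the precision. Alternatives were the block, scaling, dim genes, all features, fits of the compared groups alone, array weights, the empirical Bayes options, and leaving out arrays.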

Additional observations from a re-analysis of the deposited data

Results flagged for a closer look

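For 5 of the 7 genes the layer difference of CA2 differed from that of CA1 by a test of the difference itself (limma interaction term, where 11.6% of all genes passed). Grik4 differed by -1.66 (SE 0.11) and Neto1 by -1.33 (SE 0.15), and in each gene all 3 numbered sets of arrays had that sign, and both kept their call in all alternatives run. Grik5 differed by -0.69 (SE 0.11), Grik1 by 0.72 (SE 0.13) and Grik2 by 0.57 (SE 0.14), also with the same sign in all 3 sets, and these 3 lost the call in 1 or more of the fits described below. The Grik1 cell body levels and the Grik4 levels in the CA1 cell body layer were not shown to be above background.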

How the results depend on the processing

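The 35 member differences were recomputed under up to 25 other settings, giving 863 values, of which 758 kept direction and call, 64 lost the call, 33 gained it and 8 changed sign; none of the 8 was of a difference called in the reported fit, and 14 of the 23 called differences kept their call throughout. The 14 include the layer differences of all members in CA1 except that of Grik4, those of Grik1 and Grik4 in CA2, the cell body region differences of Grik4 and Neto1, the dendritic ones of Grik1 and Grik5, and the interactions of Grik4 and Neto1. Unless a value or the fit's own construction shows it, the cause of a change was not tested. Fewer genes or more features change the count by construction. Leaving out arrays also changes the estimated spread, and the count can then move either way. The array number limits the rest. Other features of the same symbol gave no value, since each member has 1 feature, and the interaction needs all 4 groups, so it has no fit of compared groups alone.

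Without the replicate block, differences that passed were those of Neto1 (-0.283, adjusted p = 0.0425) and Neto2 (-0.24, adjusted p = 0.0349) between the CA2 layers, the Neto2 interaction (0.41, adjusted p = 0.0335), Grik1 between the cell body layers (0.277, adjusted p = 0.0319) and Grik4 between the dendritic layers (0.203, adjusted p = 0.0457); no call of a member was lost. With the replicate block as a random effect the first 4 passed too (adjusted p = 0.0456, 0.0382, 0.0383 and 0.0352).

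After quantile normalization, Grik2 (0.026, not passing), Grik5 (0.254, passing) and Neto2 (-0.289, passing) had another sign or call between the CA2 layers, and Grik3 (-0.251) and Neto1 (0.288) lost their dendritic region calls. After median centring, Grik4 between the CA1 layers (0.21) and Grik3 between the dendritic layers (-0.22) lost calls, while Neto1 (-0.34) and Neto2 (-0.297) between the CA2 layers, the Neto2 interaction (0.507) and Grik4 between the dendritic layers (0.263) gained them. Median centring moved the share of interaction calls above 0 to 66.1%, against 41.4% as reported, and quantile normalization moved that of the CA1 layers to 47.7% and of the dendritic regions to 53.6%. With genes above the median level only, Neto1 (-0.283) and Neto2 (-0.24) between the CA2 layers and the Neto2 interaction (0.41) passed.

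Over all features, 22235 were called between the CA1 layers, 15383 between the CA2 layers and 11487 between the cell body layers, against 14122, 10251 and 6367 genes. The Grik2 interaction (0.573), Grik5 between the cell body layers (-0.27) and Grik3 (-0.28) and Neto2 (0.29) between the dendritic layers lost calls, and the interaction list counts were 3 partners and 2 other receptors, against 5 and 4. Fits of the compared groups alone called 3109 genes between the dendritic layers, against 9105. Grik2 (0.427), Grik3 (-0.28), Neto1 (0.407) and Neto2 (0.29) lost that call, 3 rather than 8 other receptors passed, and Neto1 between the CA2 layers (-0.283) and Grik1 between the cell body layers (0.277) passed. Between the cell body layers such a fit called 7594 genes, against 6367. The median SD of a gene was 0.129 in the CA1 dendritic and 0.0929 in the CA2 dendritic group. It was 0.0751 in the CA1 and 0.0721 in the CA2 cell body group. The reported fit shares its spread estimate among all 4 groups, and the part of this in the dendritic counts was not tested. Array weights called 5579 genes between the dendritic layers. Grik3 (-0.26), Neto1 (0.42) and Neto2 (0.296) lost that call, and Grik1 between the cell body layers (0.282), Neto2 between the CA2 layers (-0.24) and its interaction (0.41) passed.

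With the 3 oocyte-marked arrays left out the CA2 dendritic layer keeps 1 array, assumed to vary like the other groups. Then 5707 genes were called between the CA2 layers, 699 (against 3504) in the interaction and 1918 between the dendritic layers. Between the CA2 layers the fitted values of Grik2 (0.17), Grik5 (-0.038) and Neto1 (0.068) had the other sign. The CA2 arrays left share no replicate number, so these values include block offsets estimated from the CA1 arrays. On the arrays themselves, Neto1 was lower on the dendritic array (10.72) than on both cell body arrays (10.81 and 10.93). Grik5 was higher (8.94 against 8.88 and 8.85), and Grik2 lay between (8.72 against 8.70 and 8.74). The interactions of Grik1 (0.758) and Grik2 (0.827), Grik5 between the cell body layers (-0.208) and Grik3 (-0.152) and Neto2 (0.425) between the dendritic layers lost calls. Partner counts were 5 between the CA2 layers (against 12), 5 between the dendritic layers (against 8) and 0 in the interaction, and other receptors numbered 2 between the dendritic layers and 0 in the interaction (limma, adjusted p; the counts at an unadjusted p under 0.05 were 7 partners and 5 other receptors).

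Leaving out 1 replicate number or 1 array in turn gave these ranges. Between the CA1 layers Grik4 was 0.296 to 0.405. Between the CA2 layers Grik2 was -0.171 to 0.004, Grik3 -0.005 to 0.265, Neto1 -0.379 to -0.176 and Neto2 -0.3 to -0.145. For the interaction Grik1 was 0.61 to 0.91, Grik2 0.42 to 0.745, Grik5 -0.751 to -0.612 and Neto2 0.27 to 0.555. Between the cell body layers Grik1 was 0.208 to 0.33, Grik3 -0.031 to 0.176 and Grik5 -0.35 to -0.19. Between the dendritic layers Grik2 was 0.275 to 0.57, Grik3 -0.37 to -0.217, Grik4 0.155 to 0.288, Neto1 0.305 to 0.468 and Neto2 0.175 to 0.425. Genes called numbered 697 to 4878 in the interaction, 3451 to 6743 between the cell body layers and 3663 to 9706 between the dendritic layers. Partner counts were 1 to 5 in the interaction and 5 to 10 between the cell body layers, and other receptor counts 1 to 5 in the interaction and 3 to 11 between the dendritic layers.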
